A study of Drosophila melanogaster with 12 samples.

Results

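The wg, Wnt4, Wnt6, Wnt10, dpp and hh genes of Drosophila melanogaster encode secreted signals that pattern embryos and imaginal discs. Their loci were examined here as 3 intervals of a Polycomb binding map in dm3 (release 5), fixed by fragment start. The interval of wg (FBgn0284084), Wnt4 (FBgn0010453), Wnt6 (FBgn0031902) and Wnt10 (FBgn0031903) was chr2L:7240001-7390000. That of dpp (FBgn0000490) was chr2L:2375001-2480000, and that of hh (FBgn0004644) was chr3R:18920001-18985000. Together they held 1093 of the 356504 GATC fragments of the map, 544 in the Wnt interval, 344 in the dpp interval and 205 in the hh interval.

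Wingless (wg) and the other Wnt proteins bind receptors of the Frizzled family and act through Armadillo, the fly beta-catenin. Dpp is a bone morphogenetic protein that signals through receptor kinases to the transcription factor Mad, and Hedgehog (hh) relieves the block that its receptor Patched places on Smoothened. Polycomb is a chromodomain subunit of Polycomb repressive complex PRC1, which binds histone H3 methylated by PRC2 and keeps developmental genes silent in cells that do not use them. Genes for developmental signals and transcription factors are textbook targets of these complexes.

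Binding was measured by DNA adenine methyltransferase identification (DamID-seq). A bacterial methylase (Dam) fused to Polycomb marks GATC sites near bound chromatin, and Dam alone gives the level of accessible DNA. For each of 3 sources, the larval central brain, its repo+ glia and the fat body, the study had 2 Dam-Polycomb and 2 Dam-only libraries, 12 in all, from wandering larvae raised at 25 °C. The brain came from y,w males with FL.hsp70P-Dam[4-HT-intein@L127C], alone or fused to PC, at the ZH51C site, with 20 larvae per sample and the intein system uninduced. The glial profile came from larvae of both sexes pooled, 20 per sample, of genotype y,w/w with repoFlp5 and min.hsp70P-STOP#1-Dam-PC or min.hsp70P-STOP#1-Dam, also at ZH51C. There the Flp recombinase, driven by repo, a glial transcription factor gene, switches Dam on. The fat body came from males with the same intein constructs as the brain, 10 larvae per sample, fed 25 µM 4-hydroxytamoxifen, which induces the system. Tissue and induction changed together between brain and fat body, and tissue, DamID system and sex changed together in each comparison with glia, so these cannot be told apart. The brain was dissected without the ventral nerve cord and still holds its glia. In such bulk tissue, a larger share of bound cells and more binding per cell cannot be told apart, and the labelled cell types could not be checked against marker expression, since no RNA was measured.

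For each fragment and tissue the authors deposited 1 value, the mean over replicates of the log2 ratio between Dam-Polycomb and Dam. It has no error between animals, the depth behind it is unknown, and no test was run. Each SD below describes how single fragments scatter within a stretch of chromosome. The median score was -1.24 in brain, -0.60 in glia and 0.09 in the fat body, and levels are given as the score minus the median of the same profile (centred scores) unless called deposited. The spread of values also differed. Over all 10-kb steps of the chromosome arms, the 95th percentile was 5.52 in brain, 3.34 in glia and 2.69 in the fat body. A high centred value therefore stands higher among the steps of the glial and fat body profiles than among those of brain, which does not hold for values near or below the median.

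Polycomb was enriched over most of the Wnt interval in all 3 profiles. Its mean was 3.15 in brain (SD over fragments 2.36, 241 scored fragments), 2.42 in glia (SD 1.95, 343 fragments) and 1.82 in the fat body (SD 1.69, 188 fragments). As deposited the means were nearly equal, at 1.92 in brain, 1.82 in glia and 1.91 in the fat body. Among other windows of 150 kb, 48 of 769 had a higher mean in brain, 30 of 799 in glia and 28 of 788 in the fat body. The dpp interval was lower, at 2.39 in brain (SD 2.24, 165 fragments), 1.06 in glia (SD 1.91, 223 fragments) and 0.78 in the fat body (SD 1.95, 174 fragments). Of other windows of 105 kb, 132 of 1088 were higher than dpp in brain, 144 of 1137 in glia and 216 of 1101 in the fat body. The hh interval had 1.38 in brain (SD 3.87, 84 fragments), 1.02 in glia (SD 2.91, 116 fragments) and -0.52 in the fat body (SD 2.01, 89 fragments). Of other windows of 65 kb, 316 of 1469 were higher than hh in brain, 252 of 1787 in glia and 1127 of 1540 in the fat body. The hh means of brain and glia depended on the setting, at 0.28 in brain and 0.11 in glia when weighted by length, 0.29 and 0.44 over fragments scored in all 3 profiles, and 0.15 and 0.42 as deposited. The scatter of a 10-kb step mean between its odd and even fragments was 0.17 to 0.36 over the intervals and profiles, which covers fragments only. The large SD of brain at hh came with a split of the interval into low and high stretches.

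High steps were taken as 10-kb steps with at least 5 scored fragments and a mean over 3. In the Wnt interval, 9 of 15 steps were high in brain, where 11.3% of all steps passed. In glia 6 of 15 were high, with 5.64% of all steps, and in the fat body 3 of 15, with 3.79% of all steps. In the dpp interval 4 of 11 steps were high in brain and 0 of 11 in glia and in the fat body. In the hh interval 2 of 7 steps were high in brain, 1 of 7 in glia and 0 of 7 in the fat body. Under a threshold of 2, which 14.0% of all steps passed in brain, 8.99% in glia and 9.66% in the fat body, the dpp interval had 3 high steps in glia and 2 in the fat body, so its absence of high steps outside brain depended on the threshold.

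**Figure D1:**
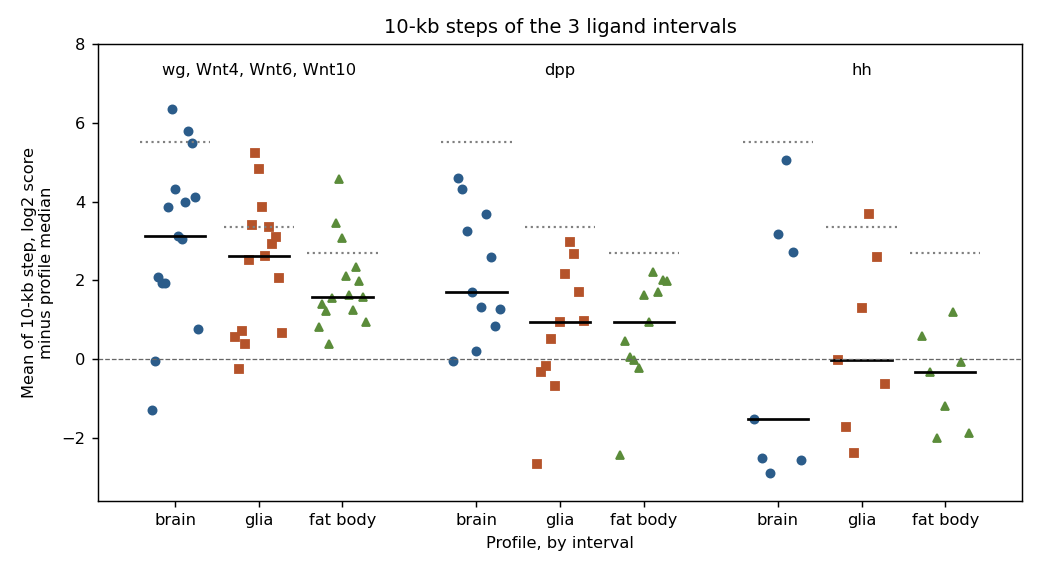
Mean of each 10-kb step (log2 score minus the profile median) in the 3 intervals, by profile; black bars are medians over steps and dotted lines the 95th percentile of all steps of that profile. The Wnt steps reached 6.35 in brain, 5.23 in glia and 4.57 in the fat body, whereas the fat body steps of the hh interval stayed at or below 1.18.

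The highest step of the Wnt interval was the same in the 3 profiles. From 7300001 to 7310000 the mean was 6.35 in brain (SD 1.71, 19 fragments), 5.23 in glia (SD 1.21, 28 fragments) and 4.57 in the fat body (SD 1.24, 12 fragments). This step stood above 97.2% of all steps in brain, 99.0% in glia and 99.0% in the fat body. A single fragment of 410 bp, from 7308288 to 7308697, was the highest of the interval in brain (10.87) and in the fat body (7.10), and had 6.92 in glia. The highest glial fragment lay nearby, from 7310391 to 7310982 (592 bp), with 8.84 in glia, 4.71 in brain and no fat body score. The common summit was thus shared to within a few kilobases, while the top fragment of glia was another one than in brain and fat body.

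In centred scores, brain had a second summit in the upper part of the Wnt interval that was flatter in the other profiles. In the step from 7350001 to 7360000 the mean was 5.80 in brain (17 fragments), 2.92 in glia (24 fragments) and 2.34 in the fat body (13 fragments). This step stood above 95.9% of all steps in brain, 94.2% in glia and 93.1% in the fat body. The profiles thus lay closer by rank than by centred score. The next step, 7360001 to 7370000, reached 5.49 in brain, 3.10 in glia and 1.99 in the fat body, the largest gap between brain and fat body in the interval (3.50). The step from 7350001 stood 0.55 below the common summit in brain, 2.31 below it in glia and 2.23 below it in the fat body. Between them, from 7330001 to 7340000, the levels were 3.05 in brain, 2.61 in glia and 1.64 in the fat body. Toward the start of the interval, the step from 7240001 to 7250000 was the lowest of brain, at -1.28, with 0.55 in glia and 0.81 in the fat body.

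**Figure D2:**
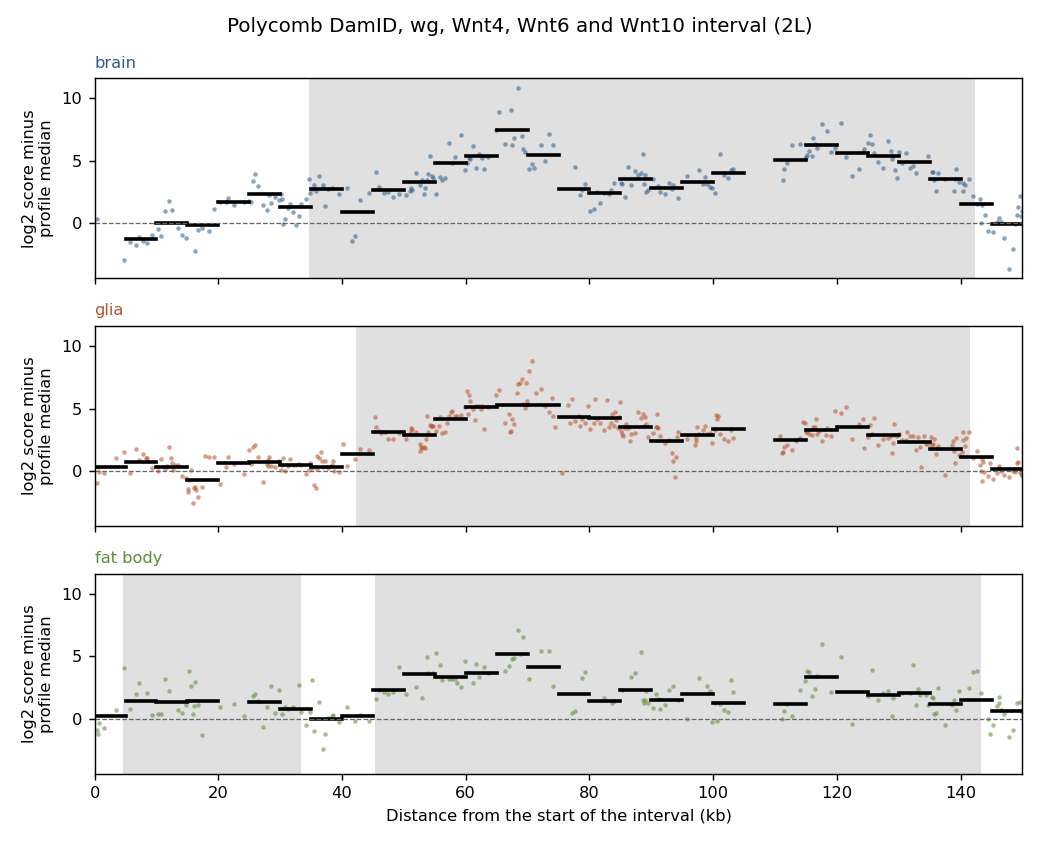
Centred log2 scores of single fragments (points) and 5-kb steps with at least 3 scored fragments (black bars) against the distance from the start of the Wnt interval, with domains of each profile shaded. The 5-kb step that starts 65 kb into the interval had 7.44 in brain, 5.31 in glia and 5.21 in the fat body, the highest of brain and fat body, and the next step was the highest of glia at 5.32, and the blank near 105 kb is a stretch without any score.

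Domains were called with a 3-state hidden Markov model, whose top state held 18.3% of scored fragments in brain, 13.3% in glia and 27.3% in the fat body. The model was fitted to each profile alone, so a domain marks a different level in each. The median score inside domains of the arms was 5.05 in brain (349 domains), 3.27 in glia (559) and 2.04 in the fat body (1937). Domain shares are therefore not a like measure of Polycomb between profiles. In the Wnt interval, domains held 72.2% of scored fragments in brain, 67.3% in glia and 81.9% in the fat body. The brain domain ran 108 kb from 7274660 to 7382383, and ranked 32 by length and 182 by mean among 349 brain domains. The glial domain, from 7282315 to 7381554, lay wholly inside it and began 7.66 kb later. The fat body domain, from 7285365 to 7383360, overlapped 90.1% of the brain domain and began 10.7 kb later. Their upper ends lay within 1 kb of that of brain, at -0.83 kb in glia and 0.98 kb in the fat body. Edges of brain domains were placed on the brain scores. A drop of brain across them, here and at the other loci, follows in part from that placing. At the lower edge brain averaged 2.88 in the first 5 scored fragments inside and 0.97 in the last 5 outside, while glia had -0.32 inside and 0.34 outside and the fat body 0.30 inside and 0.89 outside. At the upper edge all 3 profiles dropped, with 2.93 inside and 1.12 outside in brain, 2.41 and 0.44 in glia, and 2.10 and 0.82 in the fat body. A second, weaker fat body domain lay nearer the start of the interval, from 7244590 to 7273323, with means of 0.61 in brain, 0.30 in glia and 1.38 in the fat body.

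In order along release 6, the genes of this stretch are Wnt4, CG31909, wg, Wnt6, Wnt10 and ninaC. The gene tables at hand are of that release, and coordinates were not carried from it to dm3, so no summit or edge is assigned to a single gene. The 16 fragments from 7343560 to 7350537, spanning 6.98 kb, had no score in any profile. Over the interval, 198 of 544 fragments had none in any profile and 164 had one in all 3.

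The dpp interval held 2 brain domains with different partners in the other profiles. Brain domains were chosen on the brain scores, so their brain level is a description. Counts, quartiles and gaps that set brain above another profile within them follow in part from that choice. What the domains add is the level of glia and fat body over the same stretch. The lower, from 2383854 to 2419102 (35.2 kb), had a mean of 4.02 in brain (SD 1.12, 59 fragments), -0.08 in glia (SD 1.07, 47 fragments) and 0.26 in the fat body (SD 1.16, 30 fragments). Brain was higher than glia in 45 of 45 fragments scored in both, by 4.07 on average (SD 1.56). It was higher than fat body in 30 of 30, by 3.64 (SD 1.26). The range between quartiles did not overlap between brain and the other profiles. Quartiles were 3.34 and 4.54 in brain, -0.65 and 0.53 in glia, and -0.49 and 1.14 in the fat body. Other brain domains also had brain above, with median gaps of 2.43 over glia (345 domains) and 2.91 over fat body (337). Of the 337, 99 had a larger gap over fat body than the 3.77 between the domain means here. How often quartiles or all fragments separate in other domains was not counted. The brain excess in the lower domain was present under each scaling. As deposited, brain was 3.46 above glia and 2.44 above fat body, and after quantile normalization 2.85 and 2.60.

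The upper brain domain of the dpp interval, from 2444052 to 2457807 (13.8 kb), was above the profile median in all 3 profiles. Its mean was 3.68 in brain (SD 1.26, 31 fragments), 3.09 in glia (SD 1.09, 43 fragments) and 2.21 in the fat body (SD 1.70, 30 fragments). The step of highest mean in glia and in the fat body, from 2445001 to 2455000, lay here, with 3.68 in brain, 2.98 in glia and 2.22 in the fat body. Against 345 other brain domains, the gap of brain over glia was smaller than in 309 at this domain (0.58), and larger than in all but 63 at the lower one (4.10). The glial domain extended beyond the brain domain on both sides, starting 10.1 kb earlier and ending 7.07 kb later, from 2433974 to 2464874. Fat body had a domain from 2437499 to 2457677 that overlapped 99.1% of the brain domain, and others on either side of it, from 2424119 to 2434432 and from 2461140 to 2482781. In the step from 2425001 to 2435000 fat body was at 1.63, with 0.21 in brain and 0.94 in glia, the largest excess of fat body over brain in the interval.

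**Figure D3:**
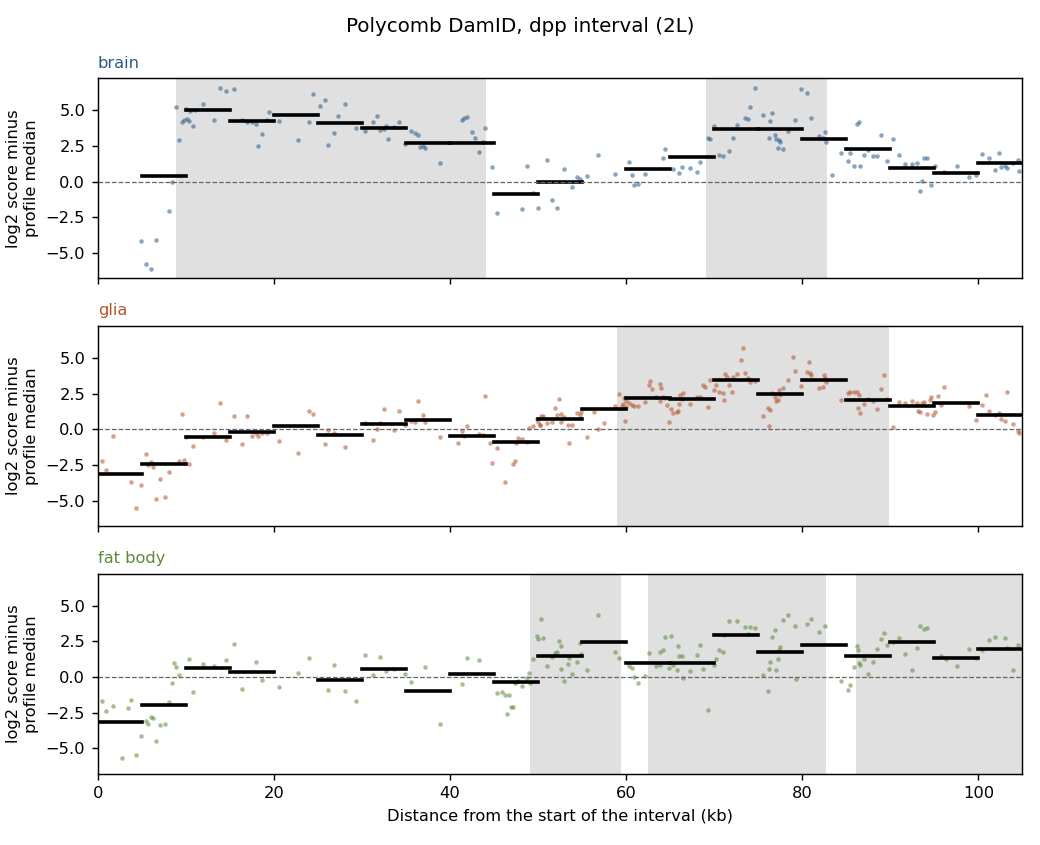
Centred log2 scores of single fragments (points) and 5-kb steps with at least 3 scored fragments (black bars) against the distance from the start of the dpp interval, with domains of each profile shaded. The brain domain from 8.85 to 44.1 kb has no shaded counterpart in glia or fat body, whereas that from 69.1 to 82.8 kb has one in each.

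The lower edge of the lower brain domain, placed on the brain scores, was steep in brain. The 5 scored fragments inside averaged 4.34 in brain and the 5 outside -3.63. The same edge was a rise from low to near-median levels in glia, at -1.26 inside and -3.77 outside, and in the fat body, at 0.38 inside and -1.57 outside. At its upper end, brain had 3.03 inside and -0.58 outside. Glia and fat body were also lower outside this end, at 0.26 inside and -2.17 outside in glia, and -0.12 and -1.47 in the fat body. The step across this end, 2415001 to 2425000, averaged 1.69 in brain, -0.69 in glia and -0.23 in the fat body. A 2-state model, which divides glia and fat body at a lower level, placed an upper-state stretch over the lower brain domain in both, from 2387663 to 2419102 in glia with a mean of 0.11 and from 2383495 to 2418640 in the fat body with a mean of 0.28. The domain calls of glia and fat body here thus depended on the model.

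In release 6 the nearest protein-coding gene before dpp along 2L is CG44139, and those just after it are Slh and oaf. Which genes lie in the lower brain domain was not determined, since no dm3 annotation was used.

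Over 5-kb steps of the dpp interval, glia and fat body rose and fell together, with a Pearson r of 0.87 (20 steps), while r was 0.07 between brain and glia (19 steps) and 0.09 between brain and fat body (18 steps). Over single fragments of the dpp interval r was 0.28 between brain and glia (148 fragments), 0.40 between brain and fat body (122 fragments) and 0.75 for glia and fat body (159 fragments). In the Wnt interval r was 0.78 between brain and glia (28 steps), 0.68 between brain and fat body (27 steps) and 0.78 for glia and fat body (28 steps). In the hh interval it was 0.97 between brain and glia (12 steps), 0.68 between brain and fat body (12 steps) and 0.75 for glia and fat body (13 steps). These values describe steps or fragments that neighbour each other on 1 chromosome and are not independent.

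At hh, Polycomb formed a compact block in brain and glia that was low in the fat body. The brain domain, from 18955664 to 18973686 (18.0 kb), had a mean of 4.96 in brain (SD 1.41, 42 fragments), 3.89 in glia (SD 0.95, 44 fragments) and 1.03 in the fat body (SD 1.03, 24 fragments). Brain was higher than fat body in 24 of 24 fragments scored in both, by 3.87 on average (SD 1.80), and glia in 22 of 23, by 2.35 (SD 1.30). The brain count again follows in part from the choice of the domain on brain scores. Of 337 other brain domains, 90 had a larger gap of brain over fat body than the 3.93 between the domain means here. As deposited, glia was 2.17 above fat body over the domain, and after quantile normalization 3.59. Of 337 other brain domains with enough scores, 10 had a larger glial excess over fat body than the 2.86 found here. The fat body level itself (1.03) was not unusual for a brain domain, since 205 of the 337 others had a higher one.

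The hh blocks of brain and glia had nearly the same ends. The glial domain ran from 18955031 to 18974999 (20.0 kb), starting 0.63 kb before and ending 1.31 kb after that of brain. At the lower edge brain averaged 4.98 in the 5 scored fragments inside and -2.88 in the 5 outside, which together with the gap between scored fragments spanned 10.5 kb. Below it, the step from 18940001 to 18950000 was the lowest of the interval in every profile, at -2.90 in brain, -2.40 in glia and -2.00 in the fat body. The highest step, from 18960001 to 18970000, was also shared, with 5.04 in brain (21 fragments), 3.69 in glia (26 fragments) and 1.18 in the fat body (15 fragments). It stood above 93.7% of all steps in brain, 95.7% in glia and 77.9% in the fat body.

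**Figure D4:**
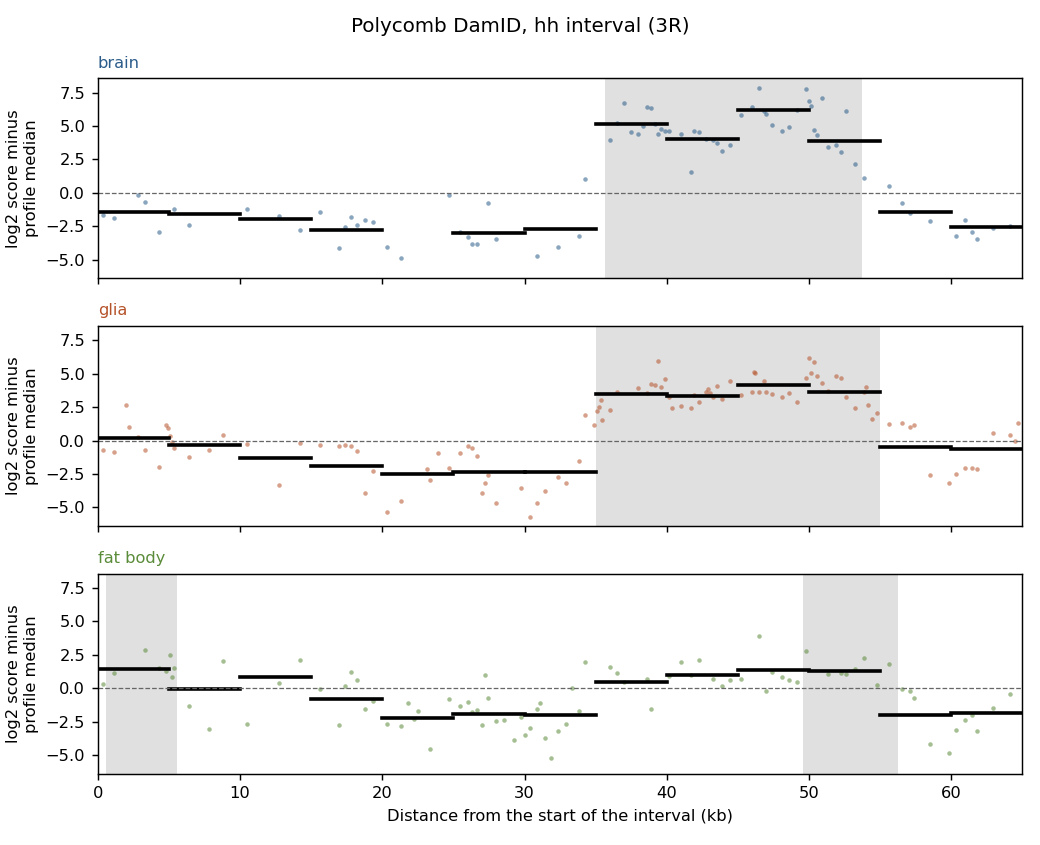
Centred log2 scores of single fragments (points) and 5-kb steps with at least 3 scored fragments (black bars) against the distance from the start of the hh interval, with domains of each profile shaded. The 4 steps from 35 to 55 kb lie between 3.87 and 6.18 in brain, 3.30 and 4.14 in glia, and 0.46 and 1.36 in the fat body.

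The highest fragment of the hh interval was the same in brain and in the fat body. From 18966215 to 18966779 (565 bp), its score was 7.88 in brain, 3.62 in glia and 3.87 in the fat body. It was the only one of 89 scored fat body fragments over 3 (1.12%), whereas 40 of 84 brain fragments and 40 of 116 glial fragments were. Over the whole map the 95th percentile of deposited scores was 5.03 in brain, 3.26 in glia and 3.48 in the fat body. Centred scores over 3 were thus not rare in any profile, and 1 of 89 is no excess. The shares of all fragments over 3 were not computed. Fat body domains called here were small. That from 18969601 to 18976269 rested on 8 fragments with a fat body mean of 1.48, and that from 18920580 to 18925533 on 7 with a mean of 1.65. Neither was called with Gaussian emissions or with at least 10 fragments per domain, which left 0% of scored fat body fragments in domains, against 16.9%. In release 6 the protein-coding neighbours of hh are CG31457 and unk.

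The 4 brain domains thus fell at different places in the order of glial and fat body levels. In glia, the hh domain was highest (3.89), then the Wnt domain (3.20), the upper dpp domain (3.09) and the lower dpp domain (-0.08). In fat body the upper dpp (2.21) and Wnt (2.20) domains had nearly the same mean, above hh (1.03) and the lower dpp domain (0.26). In brain all 4 lay between 3.68 and 4.96, with SDs over fragments of 1.12 to 1.77, and no error between animals was at hand to order them. The order of brain and glia within a domain depended on the scaling, except at the lower dpp domain. Brain was above glia by 0.97 in the Wnt domain, 0.58 in the upper dpp domain and 1.07 in the hh domain, but after quantile normalization these differences were -0.87, -1.14 and -1.14. As deposited, that of the upper dpp domain was -0.055. Brain was above the fat body in the upper dpp domain by 1.47, but by 0.14 as deposited and by -0.066 after quantile normalization. The median of 345 other brain domains was 4.27 in brain and 1.70 in glia, and that of 337 was 1.42 in the fat body.

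**Figure D5:**
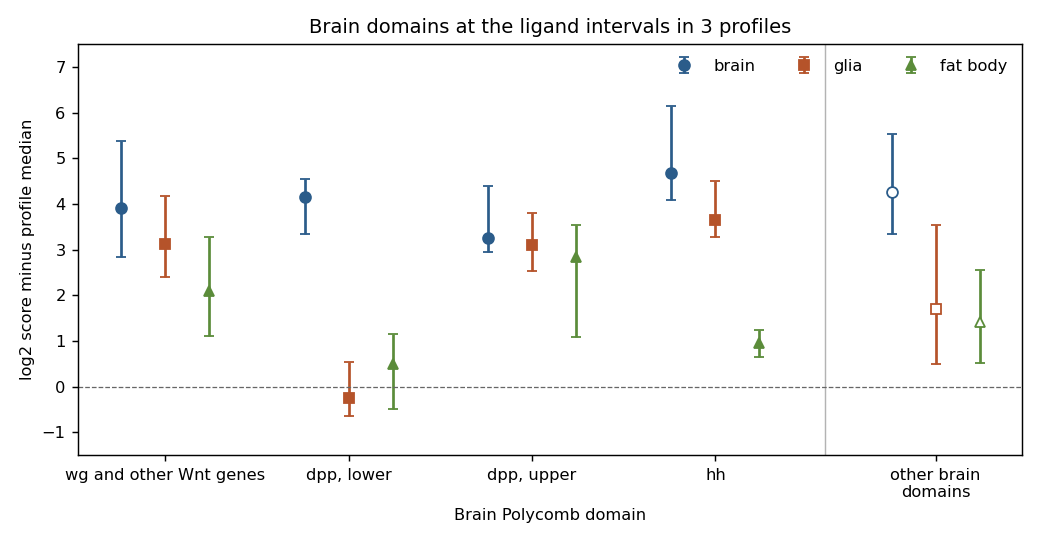
Median and quartiles over fragments of the centred log2 score within the brain domains of the intervals (filled symbols), and over the means of other brain domains (open symbols). The lower dpp domain is near 0 in glia and fat body, and the hh domain is high in brain and glia and near 1 in the fat body.

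Step by step, brain was over 1 above glia in 13 of 33 steps of the intervals, where 22.5% of all steps were, and glia over 1 above brain in 3, where 28.2% were. Brain was over 1 above fat body in 17 of 33, against 19.2% of all steps, and fat body over 1 above brain in 6, against 40.0%. Glia was over 1 above fat body in 9 of 33, against 11.5% of all steps, and fat body over 1 above glia in 3, against 25.7%. The intervals differed in these counts. Brain over glia and glia over brain gave 6 and 1 of 15 Wnt steps and 5 and 0 of 11 dpp steps. At hh they gave 2 and 2 of 7 (28.6% each), near the shares of all steps. Brain and fat body gave 8 and 2, 6 and 2, and 3 and 2 at the Wnt genes, dpp and hh. Glia and fat body gave 4 and 1, 1 and 1 (9.09% each, no excess), and 4 and 1. The counts depended on the scaling, and so did those over all steps. As deposited, 9 steps were over 1 higher in brain (13.3% of all steps) and 11 in glia (45.9%). For brain and fat body, 11 were higher in brain (9.75% of all steps) and 10 in the fat body (70.5%), and for glia and fat body 6 in glia (5.09%) and 9 in the fat body (53.5%). After quantile normalization 6 were higher in brain (16.2% of all steps) and 15 in glia (31.1%). For brain and fat body, 13 were then higher in brain (14.5%) and 8 in the fat body (39.6%), and for glia and fat body 12 in glia (14.5%) and 2 in the fat body (26.0%). As shares of the 33 steps, those higher in brain than in glia came to 39.4% centred, 27.3% as deposited and 18.2% after quantile normalization, and those higher in brain than in the fat body to 51.5%, 33.3% and 39.4%.

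Over whole intervals, the brain excess over glia was 0.73 at the Wnt genes, 1.34 at dpp and 0.37 at hh. As deposited it was 0.094, 0.70 and -0.27 at these loci, and after quantile normalization -0.66, 0.34 and -0.59, so the order of brain and glia at the Wnt genes and hh was not settled by these data. The brain excess over fat body was 1.33 at the Wnt genes, 1.62 at dpp and 1.91 at hh. As deposited it was 0.0022, 0.29 and 0.58, and after quantile normalization 0.17, 0.83 and 1.36. At hh it was 0.39 over fragments scored in all 3 profiles, and brain was higher in 28 of the 65 fragments scored in brain and fat body. The glial excess over fat body was 0.60 at the Wnt genes, 0.28 at dpp and 1.54 at hh. As deposited it was -0.091, -0.41 and 0.85, and over fragments scored in all 3 profiles 0.22, -0.10 and 0.54. At hh it was 0.76 when weighted by length, and 0.37 over the 79 fragments scored in glia and fat body, of which 47 were higher in glia.

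By their 3 means, the windows most alike to each interval lay elsewhere in the genome. Of 768 windows of 150 kb, the nearest to the Wnt interval was on 3R from 26700001 to 26850000, with 3.12 in brain, 2.28 in glia and 1.83 in the fat body, followed by 3L from 1050001 to 1200000. For dpp, the nearest of 1071 windows was on 2L at 6720001 to 6825000, with 2.25 in brain, 0.89 in glia and 0.70 in the fat body, followed by 3R from 14280001 to 14385000. For hh, it was on 2L from 15080001 to 15145000, of 1253 windows, with 1.43 in brain, 0.94 in glia and -0.46 in the fat body, followed by 3R from 11765001 to 11830000. Distance was Euclidean over the 3 means, 0.14, 0.23 and 0.11 for the nearest window of the Wnt, dpp and hh intervals. Such windows share a level and not a shape.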

How the data were processed

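The authors deposited 1 table of log2 ratios of Dam-Polycomb to Dam only per GATC fragment, normalized to Dam and averaged over replicates, per the file headers and the design text of the series. The submitters' processing notes name cutadapt, Bowtie2, HTSeq and dm3, without versions. Why some fragments have no score is not stated. The log base was checked on the steps between frequent values. Depth is unknown, and single replicates and Dam-only values were not analysed here, so no test was run.

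Members and settings were chosen with earlier results of these data known. Each profile was centred on its median over all scored fragments. Steps of 10 kb ran from each interval's start, so the last of the dpp and hh intervals spans 5 kb, and the other steps of the arms (2L, 2R, 3L, 3R, 4 and X) from base 1. Windows of equal length needed 50 scored fragments per profile. In each interval, the highest and lowest step per profile, the largest difference per pair and the 2 nearest windows were named by rule. Other steps, single fragments and edges were picked after their values were seen. Domains came from a hidden Markov model over scored fragments (3 states, t-distributed emissions with 4 degrees of freedom, Viterbi path), as runs of at least 5 fragments in the top state. On scores simulated from the fitted models, 99.7% of domain fragments were recovered in brain (121640 fragments), 98.7% in glia (192284) and 93.8% in fat body (151059), and 0.28%, 1.32% and 7.75% of the called fragments were false, profiles in that order. On simulated steps, a shift of 1.5 was called in 89.0% of 100 steps for brain and glia, 90.0% for brain and fat body and 87.0% for glia and fat body. Among unshifted steps the calls were 4.80% of 10201, 7.15% of 9627 and 4.89% of 10568, pairs in that order. In these simulated steps both profiles had the step means of the first profile plus independent Gaussian scatter over fragments. They held no difference in the spread of step means, no link between neighbouring fragments and no error between replicates. These shares are therefore not rates of false calls in the real data. Other genes of the pathways and sequences were not analysed here, since no dm3 annotation or genome was used. Python 3.11.15 was used with numpy 2.4.6, pandas 2.3.3, numba 0.67.0 and matplotlib 3.10.9.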

Additional observations from a re-analysis of the deposited data

How the results depend on the processing

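No paired analysis was possible because the deposited columns are means over replicates, and for the same reason no replicate could be left out. The limits are those of 1 mean profile per tissue with unknown depth and many unscored fragments. A count was taken as unmoved within 1.5 times, and a domain share within its 95% binomial interval (Wilson, counting only). This held for 77 of 99 counts of high steps, 89 of 108 counts of steps over 1 apart (either way) and 26 of 36 domain shares. Every 10-kb step of the intervals already had at least 5 scored fragments in each profile. The settings of at least 3 fragments and of no minimum could therefore change no step count. Their agreements, 9 high-step counts for each setting and likewise all counts of steps apart, were fixed in advance and show no stability. For interval means and their differences the only spread at hand, the SD over 10-kb steps, is too wide to show stability, and 64 of 72 alternative differences kept their sign while many changed in size. The hh means of brain and glia and the differences between profiles are given beside their alternatives above. The cause of the others was not tested unless a setting's construction shows it.

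Differences that changed sign were those of brain minus glia after quantile normalization (-0.66 at the Wnt genes, -0.59 at hh), over fragments scored in all 3 profiles (-0.15 at hh) and as deposited (-0.27 at hh), and those of glia minus fat body as deposited (-0.091 at the Wnt genes, -0.41 at dpp), over fragments scored in all 3 (-0.10 at dpp) and over fragments of 200 to 2000 bp (-0.019 at dpp). Of the alternative counts that follow, shares of all steps were computed only for high steps over 2 and for steps over 1 apart as deposited or after quantile normalization. The other counts show a change of setting and no excess over the map. With 5-kb steps, which are more numerous, high steps at the Wnt genes numbered 14 in brain, 11 in glia and 5 in the fat body. They numbered 2 in glia at dpp, and 4 in brain and 4 in glia at hh. Steps over 1 apart then numbered 13 for brain and glia at the Wnt genes, 9 for brain and glia and 5 for glia and fat body at dpp, and 8 for glia and fat body at hh. With a threshold of 2, high steps numbered 10 in glia and 5 in the fat body at the Wnt genes, 3 and 2 at dpp, and 2 in glia at hh. Steps over 2 apart numbered 3 for brain and glia, 5 for brain and fat body and 1 for glia and fat body at the Wnt genes, 4 for brain and fat body and 0 for glia and fat body at dpp, and 0 for brain and glia and 3 for glia and fat body at hh. After quantile normalization, high steps numbered 4 in brain at the Wnt genes, 2 in brain and 2 in glia at dpp, and 1 in brain and 2 in glia at hh, and 9 dpp steps were over 1 apart for brain and glia. As deposited, 8 dpp steps were over 1 apart for brain and glia and 4 for glia and fat body. Fragments of 200 to 2000 bp gave 1 high step in glia at dpp and 1 in brain at hh. Fragments scored in all 3 gave 1 high step in brain at hh, 3 dpp steps over 1 apart for brain and glia, and 2 at hh. The mean weighted by length gave 1 high step in brain at hh and 5 dpp steps over 1 apart for brain and fat body, and the median 1 high step in glia at dpp. With steps moved by 5 kb, 2 steps were high in glia at hh, and 5 dpp steps were over 1 apart for brain and fat body and 0 for glia and fat body. The 2-state model put 96.5% of glial and 97.9% of fat body fragments of the Wnt interval in domains. It put 86.1% and 83.9% there at dpp, and 62.9% and 53.9% at hh. Over all arms its upper state held 57.5% of scored fragments in glia and 56.2% in the fat body, so the hh shares were near those of the map. Gaussian emissions gave 69.1% at the Wnt genes, 44.3% at dpp and 0% at hh in fat body, against 21.9% over all arms. A minimum of 10 fragments gave 0% in fat body at hh, against 24.4% over all arms.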

Other observations

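Beyond the intervals, the flanks of 50 kb were low on all sides except above hh. The lower flank of the Wnt interval had means of -2.01 in brain, -0.52 in glia and -1.16 in the fat body, and its upper flank -0.87, -0.06 and -0.03 in the same order of profiles. The upper flank of hh, from 18985001 to 19035000, had 5.47 in brain (SD over fragments 2.21, 87 fragments), 2.51 in glia (SD 2.15, 126 fragments) and 0.69 in the fat body (SD 1.72, 105 fragments). A separate brain domain of 53.3 kb, from 18985984 to 19039302, began 0.98 kb past the end of the hh interval, with means of 5.65 in brain, 2.71 in glia and 0.52 in the fat body. Between it and the hh domain, the last step of the interval, from 18980001 to 18985000, was at -2.57 in brain, -0.63 in glia and -1.89 in the fat body.

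Short fragments carried fewer scores in the intervals, as in the whole map. Of the 622 fragments under 200 bp in the intervals, 16.4% were scored in brain, 40.5% in glia and 14.6% in the fat body. Of the 462 fragments of 200 to 2000 bp, 82.3%, 91.3% and 76.0% were scored in the same order. Several of the highest glial fragments at dpp were short and without a brain score, such as that from 2448197 to 2448248 (52 bp) with 5.67 in glia.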
